A study of Mus musculus with 2 samples.

Results

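In all, 9 genes of vitamin A handling were followed through the cell types of normal and fibrotic mouse liver: Lrat, Rbp4, Stra6, Aldh1a1, Aldh1a2, Dhrs3, Cyp26b1, Cyp26a1 and Rarb. They were chosen by name, not by their values, as 9 of the 21722 genes listed in either of 2 single-cell libraries, and all 9 are described. The libraries were made from liver non-parenchymal cells (NPCs) of 2 male C57BL/6 mice, given as 8 weeks old. The normal mouse, whose label reads quiescent state, received olive oil by intraperitoneal injection and the fibrosis mouse received CCl4, a hepatocyte toxin, in the same way, both 2 times a week for 6 weeks. Hepatocytes had been spun out at low speed before loading, so the hepatocyte-like droplets described here are what this step left behind. Each condition is 1 mouse and 1 library: no difference could be set against the spread between mice, no test was possible, and every interval printed is a 95% interval for counting error alone.

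The liver holds most of the vitamin A of the body as retinyl esters in the lipid droplets of hepatic stellate cells (HSCs), which line the sinusoid on the outer side of the liver sinusoidal endothelial cells (LSECs). LRAT makes these esters from retinol, RBP4 carries retinol out of hepatocytes into blood and STRA6 is its receptor in many other tissues. Retinol is oxidised to retinal and then by enzymes such as ALDH1A1 and ALDH1A2 to retinoic acid, DHRS3 turns retinal back into retinol, CYP26A1 and CYP26B1 break retinoic acid down, and RARB is one of the nuclear receptors through which it acts. HSCs are known to lose their droplets as they turn into collagen-producing myofibroblasts in fibrosis.

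The normal library held 8130 cells and 44062632 unique molecular identifiers (UMIs, counts of captured RNA molecules), with a median of 4144.5 per cell, and the fibrosis library 6437 cells and 53288463 UMIs, with a median of 5619. A set of 15 barcodes occurred in both. Values are UMIs of a gene per 10000 UMIs of all cells of a class, called levels below, and a lower level cannot be told apart from more RNA of other genes. All class names rest on marker genes among which no retinoid gene was counted, and stand for cells with that pattern. The stellate-like class held 66 normal and 119 fibrosis cells, the LSEC-like class 1460 and 1233. All 16 of 16 HSC markers were detected in the stellate-like class, at a summed level of 372.5 in the normal library and 220.9 in the fibrosis one, against 1.82 and 4.04 in LSEC-like cells. Mesenchymal droplets that also carried LSEC or macrophage RNA were set aside as mixed. A fibrosis sub-cluster led by cell cycle genes was set aside with them, although its LSEC and macrophage RNA lay under the limit used. Hepatocyte RNA was found in all classes: the summed level of 14 hepatocyte genes was 283.1 in normal and 27.9 in fibrosis lymphoid (B, T and NK) cells, and lymphoid cells of the same library were therefore set beside each gene. They are no exact measure of carried-over RNA, since its amount differed between classes: the summed level of 15 LSEC markers was 37.2 and 59.1 in lymphoid, 32.4 and 18.7 in stellate-like and 12.4 and 12.1 in monocyte/macrophage-like cells. Members were also counted per 100 UMIs of hepatocyte or endothelial genes for this reason.

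**Figure D1:**
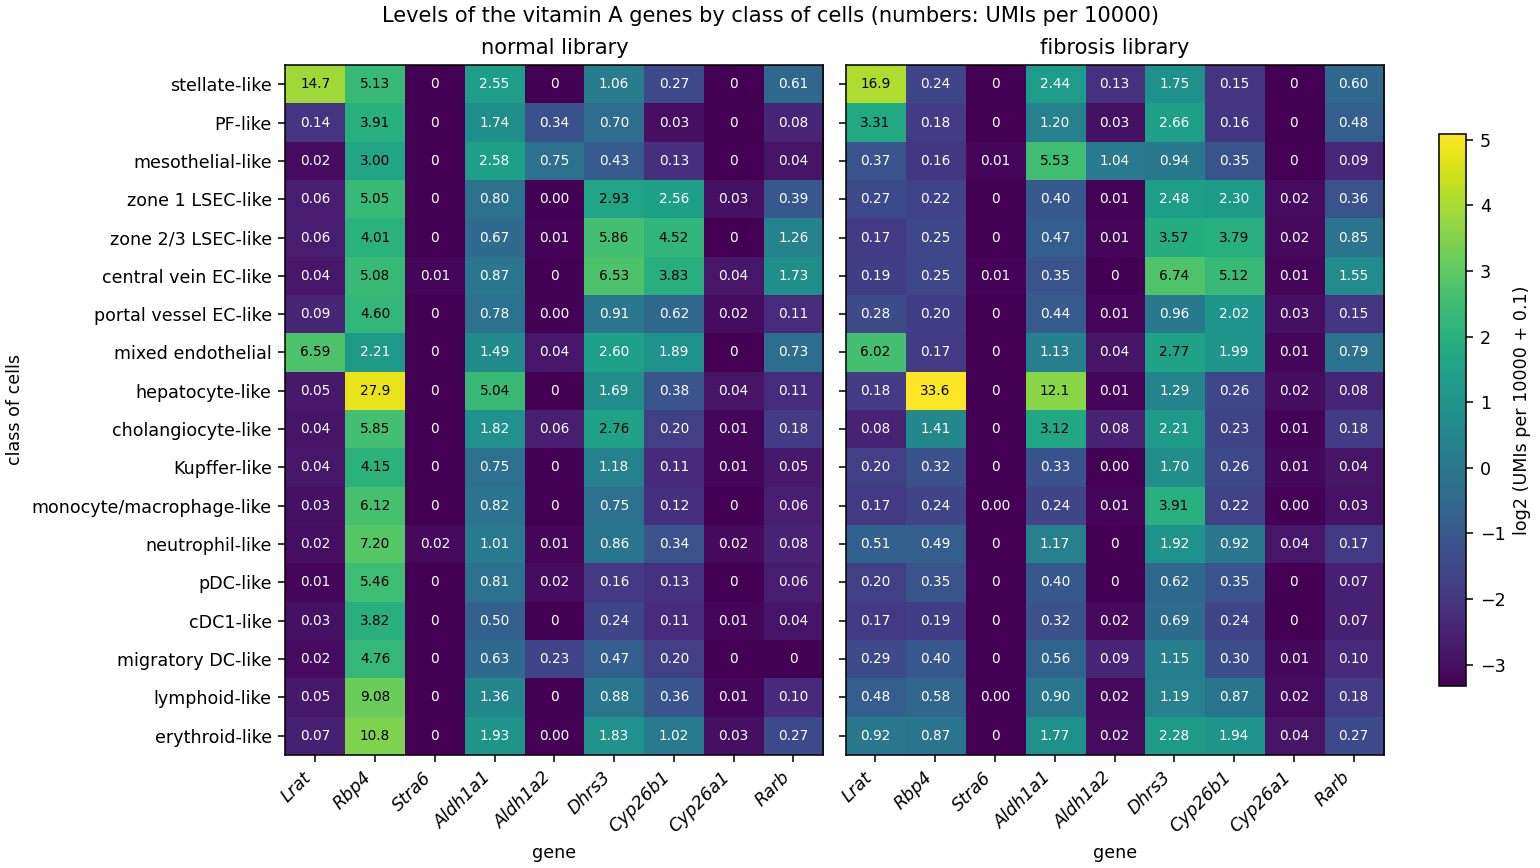
Levels of the 9 genes in 18 classes of cells of the normal (left) and the fibrosis library (right); each number is UMIs per 10000 and the colour its log2 after adding 0.1. Lrat stood out in stellate-like cells (14.7 and 16.9), Rbp4 in hepatocyte-like droplets (27.9 and 33.6), and Cyp26b1 and Rarb in endothelial classes towards the central vein, as did Dhrs3, which in the fibrosis library was also high in monocyte/macrophage-like cells (3.91).

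RNA for vitamin A storage was concentrated in stellate-like cells. Lrat (chr3:82892579-82903973, minus strand, GRCm38) had 704 UMIs in the normal and 2501 in the fibrosis stellate-like cells, which are levels of 14.7 (13.6 to 15.8) and 16.9 (16.2 to 17.5). LSEC-like cells had 0.0598 and 0.236 in the same libraries, so that the stellate-like level was 246 times (185 to 333) and 71.5 times (62.6 to 82.0) that of LSEC-like cells. With all cells of stellate-named clusters kept, mixed droplets included, the fibrosis level was 7.95 and these ratios were 147 and 33.7. Those low LSEC-like levels were not above lymphoid cells beyond counting error, with 0.0459 and 0.475. With each cell thinned to 1000 UMIs, Lrat was seen in 66.7% (54.0 to 77.8) of normal and 66.4% (57.2 to 74.8) of fibrosis stellate-like cells, but in 0.57% and 5.76% of lymphoid cells. Unthinned, the median stellate-like cell had 13.6 (quartiles 6.35 and 20.2) in the normal library and 14 (quartiles 7.92 and 20.1) in the fibrosis one.

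Within the stellate-like class as it was drawn, the RNA for the ester-forming enzyme was thus at about the same level per UMI in both libraries. The ratio of fibrosis to normal was 1.15 (1.06 to 1.25), but it fell to 0.963 (0.883 to 1.05) without the top 5% of Scrublet doublet scores and to 0.906 (0.854 to 0.961) with the mixed droplets kept, so no direction can be given. Per cell it was 1.97, since the fibrosis stellate-like cells carried more RNA (median 11555 against 6278 UMIs). In the same cells the genes of the collagen-producing state were far apart between the libraries. Col1a1, a chain of type I collagen, had levels of 2.02 and 82.5, a ratio of 40.8 (33.4 to 50.3). Col3a1, the chain of type III collagen, went from 10.6 to 109, and Acta2, smooth muscle actin, from 0.897 to 9.74. Tagln, another contractile gene, had 2.09 and 11.4 and Timp1, an inhibitor of matrix proteases, 0.0835 and 0.931. Genes of quiescent HSCs differed less: the ratio was 0.864 (0.805 to 0.927) for Reln, 0.663 (0.565 to 0.780) for Lhx2 and 0.664 (0.498 to 0.893) for Ngfr (1.37 in the shallower and 0.364 in the deeper of the fibrosis sub-clusters described next), while that of Des, an intermediate filament of HSCs, was 1.21 (0.995 to 1.49) and that of the growth factor receptor Pdgfrb 1.49 (1.28 to 1.75).

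The fibrosis stellate-like class consisted of a sub-cluster of 61 cells with a median of 6292 UMIs and another of 58 cells with 17222, which differed in collagen RNA and hardly in Lrat. Col1a1 was 7.05 times (6.53 to 7.62) higher in the deeper sub-cluster, at 110.9 against 15.7, and Acta2 2.56 times (2.21 to 2.98) higher, at 11.9 against 4.65. Lrat was 17.0 in the deeper and 16.6 in the shallower one, a ratio of 1.03 (0.941 to 1.12). Dhrs3 was 1.92 against 1.36 (ratio 1.41, 1.05 to 1.92), Rarb 0.682 against 0.408 (1.67, 0.986 to 2.98) and Aldh1a1 2.54 against 2.20 (1.15, 0.911 to 1.47). The sub-clusters were drawn from the same cells, so these ratios describe them and are no test. Some fibrosis cells outside the class had less Lrat and high Col1a1. The set-aside sub-cluster of 56 cells led by cell cycle genes had Lrat at 6.42 (6.01 to 6.86) and Col1a1 at 80.7. PF-like cells, described below, had 3.31 and 187.3.

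**Figure D2:**
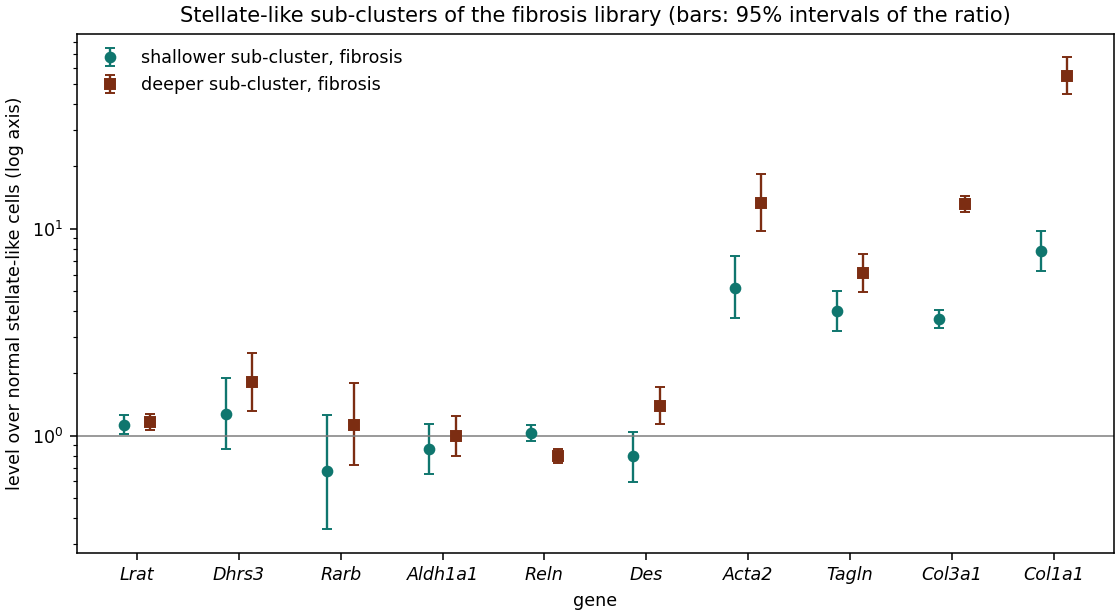
Level of each gene in the shallower (circles) and deeper (squares) stellate-like sub-cluster of the fibrosis library, divided by its level in normal stellate-like cells, on a log axis with 95% intervals for counting error; the line marks equal levels. Lrat lay close to 1 in both (1.13 and 1.16), whereas Col1a1 was far above 1 in both and 7.05 times higher in the deeper one.

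Lrat was also found outside the stellate-like class in the fibrosis library. Portal fibroblast-like (PF-like) cells, named by genes such as Mfap4 and Dpt, had 5 Lrat UMIs in 44 normal and 443 in 82 fibrosis cells, which are levels of 0.141 (0.0456 to 0.328) and 3.31 (3.01 to 3.64) and a ratio of 23.6 (10.0 to 73.0). A UMI was present in 2 of the 44 and in 67 of the 82 cells, and in 0% and 28.1% after thinning. The ratio between lymphoid cells of both libraries was 10.4 (6.90 to 16.1), and PF-like cells had 6.97 times (5.86 to 8.31) the lymphoid level in the fibrosis library. With a mitochondrial limit of 5% the PF-like ratio was 10.9 (4.16 to 40.8), and the level of fibrosis B cells, which held 94 of the 188 lymphoid Lrat UMIs, went from 0.550 to 0.0760. In PF-like cells the sum of the 16 HSC markers was lower in fibrosis, from 135.6 in the normal library to 78.2 in the fibrosis one, as was the sum of the 13 PF markers, from 104.4 to 53.6. Among the HSC markers Reln and Lhx2, chosen after their values were seen, were higher: Reln had 0 UMIs in normal PF-like cells and a level of 3.52 in fibrosis, and Lhx2 had 0.0281 and 1.65. Des (1.52 and 2.42) and Ngfr (0.0843 and 0.404), chosen likewise, were higher too. In normal PF-like cells Reln, Lhx2, Ngfr and Des had 0, 1, 3 and 54 of the 4821 UMIs of the sum, which came mostly from other genes of the list. Whether stellate cells lay in the PF-like class was not tested. In PF-like cells 11.9% of 4578 genes were at least 2 times higher and 10.4% at least 2 times lower in fibrosis, and of the 4 members measured at 0.5 or more in either library Lrat and Dhrs3 were in the first group and Rbp4 in the second. Dhrs3 had 0.703 and 2.66 in PF-like cells, a ratio of 3.78 (2.52 to 5.92). The mixed droplets held Lrat too, at 6.59 and 6.02 in those with LSEC RNA, which accounted for 40.5% and 33.2% of all Lrat UMIs of the libraries against 46.9% and 27.3% in the stellate-like class. In the fibrosis library mixed droplets with macrophage RNA held a further 13.6% and the set-aside sub-cluster led by cell cycle genes 9.68%.

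Of other genes that take up or form retinol, Bco1, which cleaves provitamin A carotenoids, had 1.71 in normal and 2.03 in fibrosis stellate-like cells, against 0.0223 and 0.0486 in LSEC-like cells. Lrp1, a receptor for the lipoprotein remnants in which vitamin A reaches the liver, had 7.70 and 7.63 against 0.290 and 0.666. These genes thus shared with Lrat a stellate-like level many times that of LSEC-like cells in both libraries. Unlike Lrat, Lrp1 was also high in monocyte/macrophage-like cells, as given under other observations. Lpl, a lipase that can act on such particles, had 2.46 and 6.37 against 0.123 and 1.51, but reached 3.21 in fibrosis lymphoid cells. Rxra, the partner receptor of the retinoic acid receptors, had 1.94 in normal and 1.02 in fibrosis stellate-like cells (ratio 0.525, 0.403 to 0.687).

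Rbp4, for transport out of the liver, was highest in hepatocyte-like droplets, which held 21.4% of its UMIs in the normal library and 67.0% in the fibrosis one. Rbp4 (chr19:38116629-38125281, minus strand) had 27.9 (27.2 to 28.6) in 703 normal and 33.6 (32.5 to 34.8) in 148 fibrosis hepatocyte-like droplets. The median droplet went the other way, from 23.9 (quartiles 15.9 and 33.8) to 9.965 (quartiles 2.93 and 22.3). The ratio of the class levels, 1.21 (1.16 to 1.26), was lower than the shift of the median gene in these droplets, 0.47 on the log2 scale. It turned to 0.924 with a mitochondrial limit of 5% and to 0.989 without the 3 cells richest in Rbp4, so no direction can be given. The summed level of 14 hepatocyte genes in these droplets was 1381 and 682.2. In stellate-like cells Rbp4 had 5.13 and 0.236, a ratio of 0.0460 (0.0313 to 0.0657), and in LSEC-like cells 4.84 and 0.247, a ratio of 0.0510 (0.0447 to 0.0580). Lymphoid cells, which should lack the gene, had more than either, 9.08 and 0.579, and a ratio of 0.0638 (0.0556 to 0.0728). The summed level of 14 hepatocyte genes moved with Rbp4, at 149.9 and 11.8 in stellate-like, 169.4 and 14.5 in LSEC-like and 283.1 and 27.9 in lymphoid cells. Per 100 UMIs of Alb, Apoa1, Apoa2, Serpina1c and Fabp1, Rbp4 had 4.98 UMIs in stellate-like, 4.06 in LSEC-like and 4.57 in lymphoid cells of the normal library, and 3.22, 2.61 and 3.22 in the fibrosis library. Hepatocyte-like droplets had 2.81 (2.73 to 2.88) and 7.61 (7.34 to 7.88) on this scale, below those classes in the normal library and above them in the fibrosis one.

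**Figure D3:**
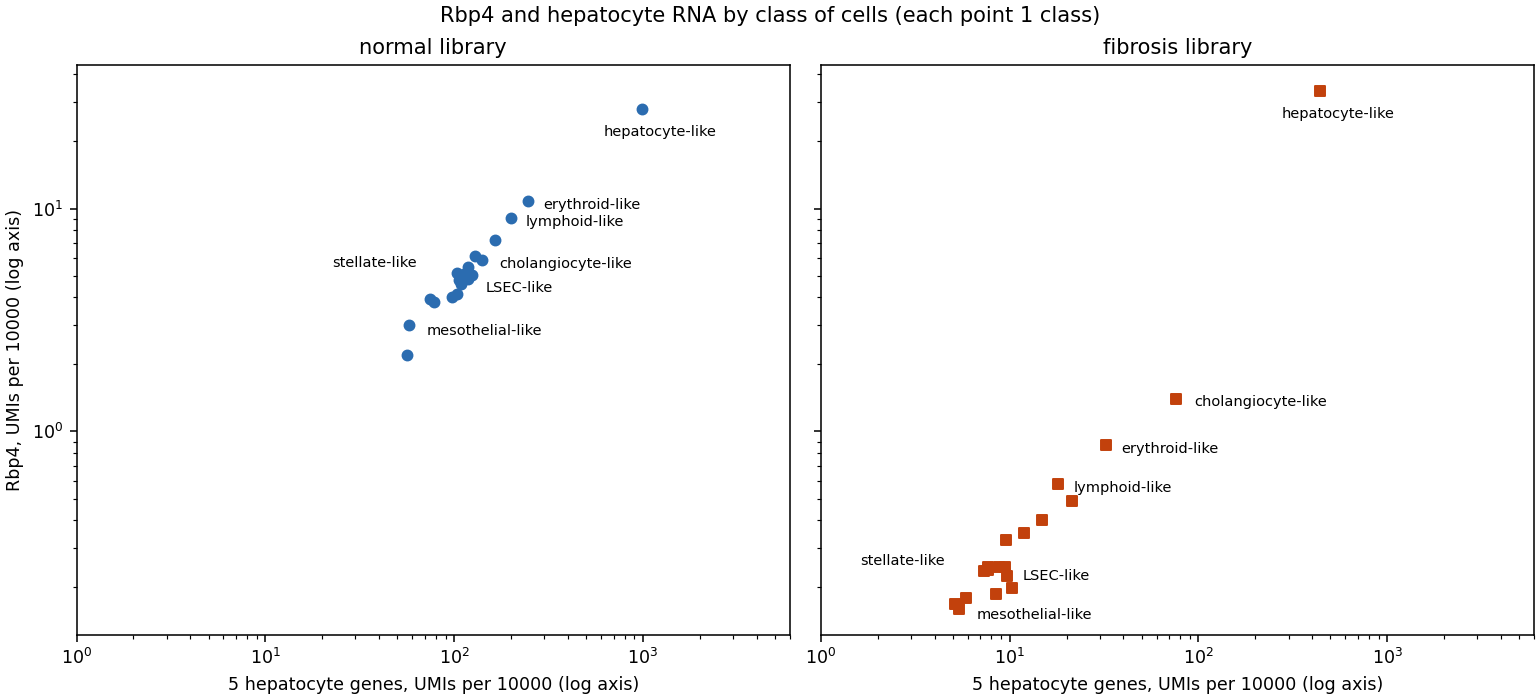
Rbp4 against the summed level of 5 hepatocyte genes (Alb, Apoa1, Apoa2, Serpina1c and Fabp1), both in UMIs per 10000 on log axes, with 1 point per class in the normal (left) and the fibrosis library (right). Classes other than hepatocyte-like droplets lay along a line, with stellate-like and LSEC-like cells below lymphoid cells in both libraries.

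Rbp4 was the only member measured at 0.5 or more that differed at least 2 times between the libraries in these cells: 1 of 5 in stellate-like cells, where 14.5% of 4332 genes did so, and 1 of 5 in LSEC-like cells, where 7.32% of 4492 did. Aldh1a1 in LSEC-like cells, with a ratio of 0.528 (0.466 to 0.597), passed the limit too at a resolution of 1.5 (0.467), without the top 5% of doublet scores (0.460) and with retinoid genes allowed in the clustering (0.419), as Rarb did with a mitochondrial limit of 5% (0.469) and, in stellate-like cells, Dhrs3 per cell (2.83). Aldh1a1 in LSEC-like cells went the other way per 100 UMIs of the 5 hepatocyte genes, from 0.658 to 4.38 UMIs. Stra6 (chr9:58063788-58153996, plus strand) was nearly absent, with 3 UMIs in the kept cells of the normal and 18 in those of the fibrosis library. Stellate-like and LSEC-like cells had 0 in both. A count of 0 allows up to 0.0626 and 0.0202 per 10000 in stellate-like and 0.00352 and 0.00297 in LSEC-like cells.

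Both genes for retinoic acid synthesis were highest outside the sinusoid. Aldh1a1 (chr19:20492715-20643465, plus strand) had 5.04 (4.74 to 5.34) in normal and 12.1 (11.4 to 12.8) in fibrosis hepatocyte-like droplets, a ratio of 2.40 (2.21 to 2.61). It had 0.506 and 2.73 UMIs there per 100 UMIs of the 5 hepatocyte genes. In these droplets 23.8% of 3802 genes were at least 2 times higher, and of 3 members measured Aldh1a1 was 1. Mesothelial-like cells, the cover of the liver surface, had 2.58 (2.18 to 3.04) and 5.53 (5.05 to 6.05), and cholangiocyte-like cells 1.82 and 3.12. Stellate-like cells had 2.55 (2.11 to 3.04) and 2.44 (2.19 to 2.70), a ratio of 0.957 (0.777 to 1.18). This was above lymphoid cells (1.36 and 0.895) by 1.87 times (1.54 to 2.27) and 2.72 times (2.34 to 3.16), and above LSEC-like cells (0.783 and 0.413) by 3.25 times (2.66 to 3.95) and 5.89 times (5.10 to 6.80). Normal stellate-like and mesothelial-like cells did not differ beyond counting error (2.55 and 2.58), and LSEC-like cells lay under lymphoid cells in both libraries.

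Aldh1a2 (chr9:71215789-71296243, plus strand) marked mesothelial-like cells, with 42 UMIs in 44 normal and 91 in 48 fibrosis cells and levels of 0.753 (0.543 to 1.02) and 1.04 (0.838 to 1.28). Those cells held 42.0% and 30.0% of all its UMIs. In the fibrosis library an unnamed sub-cluster of 29 cells held a further 28.7%, at a level of 1.03. Stellate-like cells had 0 UMIs in the normal library and 19 in the fibrosis library, a level of 0.128 (0.0772 to 0.20) that was at least 2.05 times the normal one when 3 UMIs are taken as the limit of a count of 0. With the counting error of both libraries included, the lower limit of the ratio was 1.51. Lymphoid cells had 0 and 0.0152, so the fibrosis stellate-like level was 8.45 times (3.24 to 25.8) that of lymphoid cells. PF-like cells had 12 UMIs in the normal library and 4 in the fibrosis one, levels of 0.337 and 0.0299, and migratory DC-like cells, which are known to make retinoic acid in the gut, 0.234 and 0.0860.

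In the endothelium Dhrs3 was graded along the path of the blood, and Cyp26b1 was higher in zone 2/3 than in zone 1. Dhrs3 (chr4:144892827-144928209, plus strand) rose in the normal library from 0.907 (0.789 to 1.04) in portal vessel EC-like cells through 2.93 (2.73 to 3.15) in zone 1, the portal side of the sinusoid, and 5.86 (5.53 to 6.21) in zone 2/3 LSEC-like cells to 6.53 (6.11 to 6.97) in central vein EC-like cells. In the fibrosis library the same classes had 0.959, 2.48, 3.57 and 6.74, and LSEC-like cells without a zone lay between both zones (4.20 and 2.80). The order was thus the same in both, and each class differed from its neighbour beyond counting error. Zone 2/3 had 2.0 times (1.82 to 2.19) the zone 1 level in the normal and 1.44 times (1.32 to 1.57) in the fibrosis library. The central vein over LSEC-like ratio was 1.56 (1.45 to 1.68) and 2.36 (2.21 to 2.52).

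Cyp26b1 (chr6:84571414-84593908, minus strand), the retinoic acid hydroxylase of many tissues other than hepatocytes, had 0.617, 2.56, 4.52 and 3.83 in portal vessel, zone 1, zone 2/3 and central vein classes of the normal library and 2.02, 2.30, 3.79 and 5.12 in the fibrosis library. Of these 4 classes zone 2/3 was thus highest in the normal library and the central vein in the fibrosis one. LSEC-like cells without a zone had 1.96, below zone 1, and 2.12, which overlapped zone 1 and the portal vessel class within counting error. Zone 2/3 had 1.76 times (1.59 to 1.95) and 1.65 times (1.51 to 1.80) the zone 1 level. The central vein class of the normal library held 165 cells with a Cyp26b1 level of 5.20 (4.75 to 5.67) and 62 cells led by genes such as Fmo2, Cpe and Eln, with 0 central vein markers among their 10 leading genes, with 0.727 (0.494 to 1.03), while Dhrs3 was 7.64 and 4.01 and Rarb 1.84 and 1.48 in them. Whether normal central vein EC-like cells lay above or below LSEC-like cells in Cyp26b1 therefore depended on the grouping: the ratio of 1.40 (1.27 to 1.54) became 0.938 at a clustering resolution of 1.5 and 0.922 without the top 5% of doublet scores. In the fibrosis library the ratio was 1.94 (1.80 to 2.09).

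Rarb (chr14:16430839-16819156, minus strand), itself a well-known target of retinoic acid, had the steepest gradient of the 3 by ratio. Its levels were 0.111 (0.0723 to 0.162), 0.388 (0.317 to 0.471), 1.26 (1.11 to 1.42) and 1.73 (1.52 to 1.96) along the same classes in the normal library. They were 0.150, 0.358, 0.851 and 1.55 in the fibrosis library. Zone 2/3 had 3.24 times (2.56 to 4.12) and 2.38 times (1.94 to 2.93) the zone 1 level, and central vein EC-like cells 2.38 times (2.04 to 2.77) and 2.85 times (2.46 to 3.29) the LSEC-like level. Rarb was the only member of the 5 and 3 measured at 0.5 or more in these classes that was at least 2 times higher in zone 2/3, where 1.54% of 4349 and 0.490% of 4285 genes were so. At the central vein it was Rarb in the normal library (5.10% of 4428 genes at least 2 times higher) and Dhrs3 and Rarb in the fibrosis library (3.01% of 4457). The zones were named from other genes, but the cells were clustered on values correlated with these, so the gradient is a description.

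**Figure D4:**
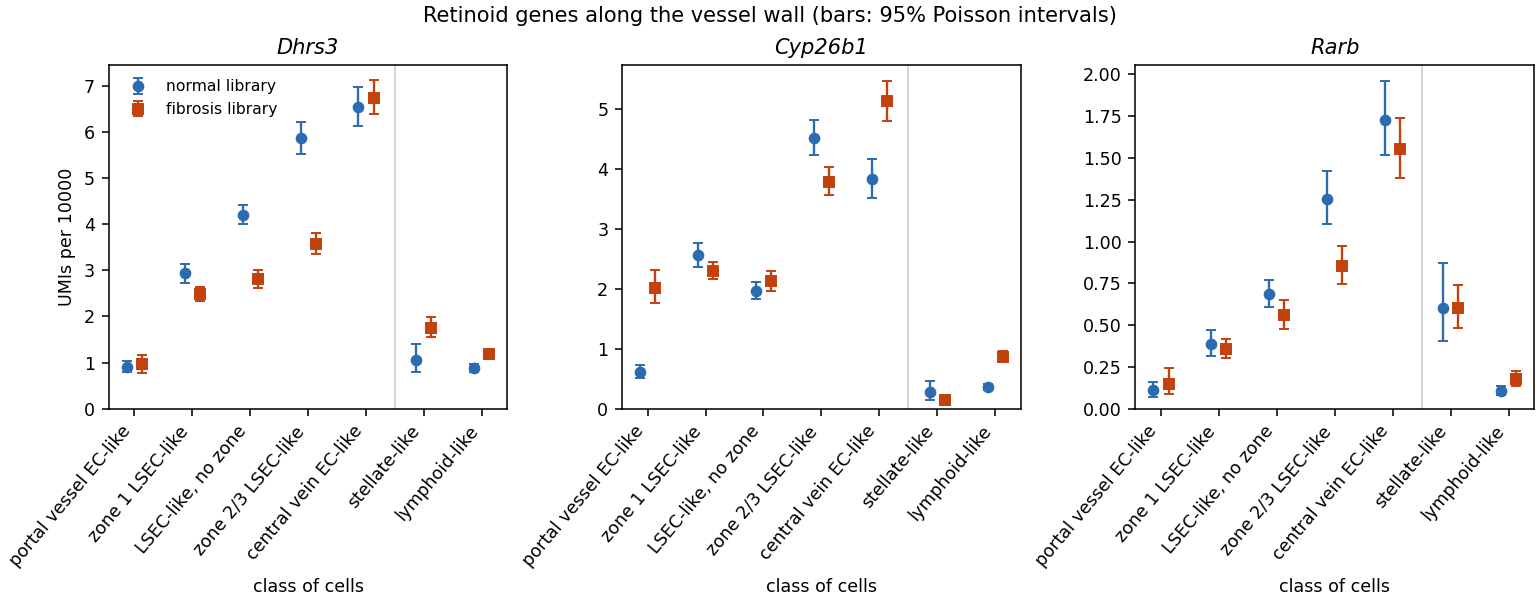
Levels (UMIs per 10000, 95% intervals for counting error) of Dhrs3, Cyp26b1 and Rarb in endothelial classes ordered from the portal to the central vein, and in stellate-like and lymphoid cells, for the normal (circles) and fibrosis (squares) libraries. Dhrs3 and Rarb had their lowest value of the 5 endothelial classes drawn in portal vessel EC-like cells of both libraries, as had Cyp26b1, whose fibrosis value there overlapped those of zone 1 and of cells without a zone within counting error, and stellate-like Cyp26b1 was not above lymphoid cells.

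Against this endothelial pattern stellate-like cells differed by gene. Cyp26b1 was all but missing from them: 0.271 (0.144 to 0.464) in the normal library and 0.148 (0.0930 to 0.225) in the fibrosis one, 0.0991 times (0.0527 to 0.170) and 0.0563 times (0.0352 to 0.0853) the LSEC-like levels of 2.74 and 2.64, and not above lymphoid cells, at 0.362 and 0.870. Per 100 UMIs of 5 endothelial genes (Clec4g, Stab2, Gpr182, Dnase1l3 and Kdr), stellate-like cells had 2.64 and 2.97 Cyp26b1 UMIs and lymphoid cells 2.57 and 3.76. On both scales the Cyp26b1 values of stellate-like cells, which rest on 13 and 22 UMIs, were not above those of lymphoid cells beyond counting error. Dhrs3 was 1.06 (0.792 to 1.40) and 1.75 (1.55 to 1.98), which is 0.254 times (0.189 to 0.334) and 0.614 times (0.539 to 0.697) the LSEC-like level. Lymphoid cells had 0.881 and 1.19, a ratio of 1.21 (0.888 to 1.61) in the normal library and of 1.48 (1.26 to 1.72) in the fibrosis one. Per 100 endothelial UMIs, however, stellate-like cells had 10.4 (7.61 to 13.8) and 35.1 (30.4 to 40.5) Dhrs3 UMIs and lymphoid cells 6.26 (5.71 to 6.84) and 5.13 (4.67 to 5.63), so that on this scale both libraries were above lymphoid cells. Rarb, in contrast, had 0.605 (0.405 to 0.869) and 0.600 (0.482 to 0.739), close to LSEC-like cells (0.726 and 0.544) and 5.84 times (3.62 to 9.22) and 3.39 times (2.45 to 4.71) lymphoid cells. Per 100 UMIs of the same endothelial genes Rarb had 5.89 and 12 UMIs in stellate-like and 0.74 and 0.76 in lymphoid cells.

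In counts over the members, 6 were measured at 0.5 or more in the normal stellate-like or LSEC-like cells and 5 in the fibrosis ones. Lrat and Aldh1a1 were at least 2 times higher in stellate-like cells in both libraries, where 12.9% of 4780 and 14.3% of 4834 genes were so. Dhrs3 and Cyp26b1 were at least 2 times lower in the normal library and Cyp26b1 in the fibrosis library, where 18.1% and 19.2% of genes were so. The median gene was 0.18 and 0.22 lower in stellate-like cells on the log2 scale. Cyp26a1 (chr19:37697798-37701536, plus strand), the retinoic acid hydroxylase of hepatocytes, had 64 UMIs in the normal library and 54 in the fibrosis one and never passed 0.0430 in a class. Stellate-like cells had 0 in both libraries, which allows levels up to 0.0626 and 0.0202, and the 703 and 148 hepatocyte-like droplets had 8 and 2 UMIs.

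Because several of these genes are known targets of retinoic acid, whose receptor pairs bind direct repeats of a short half-site, the RefSeq promoters of the members (GRCm38.p6, from 250 bases before the start) were searched on both strands for pairs of AGGTCA or AGTTCA or GGGTCA or GGTTCA in the same direction, spaced by 2 or by 5 bases. Spacing 5 occurred in 32 of 32851 promoters (0.0974%) and spacing 2 in 88 (0.268%). Rarb had a spacing-5 pair 53 to 37 bases before the start (chr14:16575513-16575529, minus strand), where the annotation also places the first exon of a longer transcript, and Cyp26a1 had 1 from 32 to 16 bases before its start. They are shown with 6 bases on each side, 5′ to 3′ on the gene's strand, with the pair in capitals. The Cyp26a1 pair reads in the opposite direction.
Rarb: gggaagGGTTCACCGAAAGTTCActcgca
Cyp26a1: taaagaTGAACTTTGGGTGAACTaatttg

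No such pair was found in the windows of Lrat, Dhrs3, Cyp26b1, Stra6, Aldh1a1, Aldh1a2 and Rbp4, which says only that these letters are not there. The bases before the start of the ester-forming gene, the retinal reductase and both hydroxylases are given because these genes were at least 2 times apart between normal stellate-like and LSEC-like cells (Lrat, Dhrs3, Cyp26b1) or were not or hardly detected in both (Cyp26a1); annotated exons are left out, so that the Cyp26b1 stretch ends 98 bases before its RefSeq start, and the pair is in capitals. The windows are chr3:82903975-82904224 (minus strand), chr4:144892577-144892826 (plus strand), chr6:84593909-84594060 (minus strand) and chr19:37697558-37697797 (plus strand). Their GC content was 59.2%, 61.6%, 65.1% and 62.1%, and they held 18, 19, 3 and 20 CG pairs.
Lrat: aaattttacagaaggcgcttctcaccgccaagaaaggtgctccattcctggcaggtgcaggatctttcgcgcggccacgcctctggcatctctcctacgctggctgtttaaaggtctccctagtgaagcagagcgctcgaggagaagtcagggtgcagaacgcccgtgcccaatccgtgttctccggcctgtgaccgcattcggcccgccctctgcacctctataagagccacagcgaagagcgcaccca
Dhrs3: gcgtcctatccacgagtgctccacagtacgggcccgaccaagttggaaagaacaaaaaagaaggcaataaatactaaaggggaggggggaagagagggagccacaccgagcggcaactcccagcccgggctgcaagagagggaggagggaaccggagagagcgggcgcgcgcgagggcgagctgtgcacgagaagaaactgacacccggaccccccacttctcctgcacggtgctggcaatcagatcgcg
Cyp26b1: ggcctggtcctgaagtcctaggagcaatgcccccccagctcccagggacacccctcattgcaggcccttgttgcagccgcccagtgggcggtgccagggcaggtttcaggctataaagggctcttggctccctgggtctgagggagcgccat
Cyp26a1: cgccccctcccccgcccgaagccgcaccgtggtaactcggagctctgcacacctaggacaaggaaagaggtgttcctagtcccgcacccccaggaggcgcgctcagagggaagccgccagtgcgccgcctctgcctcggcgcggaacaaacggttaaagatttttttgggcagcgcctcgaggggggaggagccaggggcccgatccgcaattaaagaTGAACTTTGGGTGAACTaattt

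Between the libraries, LSEC-like cells had near-equal Cyp26b1 and lower Dhrs3 and Rarb per UMI. Cyp26b1 was 2.74 (2.63 to 2.85) and 2.64 (2.54 to 2.74), a ratio of 0.964 (0.911 to 1.02). Dhrs3 was 4.19 (4.06 to 4.33) and 2.86 (2.75 to 2.96), a ratio of 0.681 (0.648 to 0.716), and Rarb 0.726 and 0.544, a ratio of 0.75 (0.667 to 0.843). Neither ratio passed the limit of 2 times, but that of Rarb was 0.469 with a mitochondrial limit of 5%. Per cell they were 0.954 and 1.05, since fibrosis LSEC-like cells held more UMIs (median 7580 against 5555). By zone, Dhrs3 had a ratio of 0.847 (0.772 to 0.929) in zone 1, 0.609 (0.558 to 0.665) in zone 2/3 and 1.03 (0.947 to 1.12) at the central vein.

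Portal vessel EC-like cells went the other way for Cyp26b1, from 0.617 (0.521 to 0.726) to 2.02 (1.76 to 2.31), a ratio of 3.28 (2.64 to 4.07), or 5.29 with a mitochondrial limit of 5%. The class was made of 256 cells led by genes such as Igfbp5 and Adgrg6 (0.650) and 87 led by Npr3 and Col8a1 (0.529) in the normal library, but of 1 cluster of 161 cells led by Nrg1 and Gja5 in the fibrosis one, where Adgrg6 and Igfbp5 were among the leading genes of 114 cells named zone 1 (2.12). Cyp26b1 was the only member of 4 measured to be at least 2 times higher there, where 3.72% of 4620 genes were so. The lymphoid level was higher as well, from 0.362 to 0.870 (ratio 2.40, 2.02 to 2.86), and its part in the result was not tested. NK cells held 1.08% of Cyp26b1 UMIs and 5.24% of all UMIs in the normal library, but 2.30% and 2.13% in the fibrosis one. B cells had 1.08% and 4.31%, then 2.09% and 3.34%, and T cells 2.72% and 4.69%, then 0.747% and 2.26%. Erythroid-like cells had 6.04% and 6.29%, then 3.23% and 2.18%, and portal vessel EC-like cells 3.32% and 5.69%, then 3.21% and 2.08%. A rise per UMI was thus not particular to portal vessel EC-like cells. The summed level of the LSEC markers in portal vessel EC-like cells was 132.1 and 127.0. Per 100 UMIs of the 5 endothelial genes Cyp26b1 had 2.14 (1.80 to 2.53) and 5.80 (5.03 to 6.65) UMIs in them, against 2.57 and 3.76 in lymphoid cells.

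The largest Dhrs3 difference lay in phagocytes. Monocyte/macrophage-like cells had 0.745 (0.583 to 0.939) in 171 normal and 3.91 (3.76 to 4.07) in 523 fibrosis cells, a ratio of 5.25 (4.15 to 6.73), and 5.85% (2.84 to 10.5) and 26.5% (22.8 to 30.6) of cells had a UMI after thinning. Lymphoid cells had 0.881 and 1.19, so that the class had 0.847 times (0.652 to 1.08) the lymphoid level in the normal library and 3.29 times (2.98 to 3.64) in the fibrosis one. Per 100 endothelial UMIs it had 16.8 (12.9 to 21.6) and 92.4 (87.5 to 97.6) Dhrs3 UMIs against 6.26 and 5.13 in lymphoid cells, so that on this scale it was above them in both. Of 3 members measured there Dhrs3 was the one at least 2 times higher (8.92% of 4228 genes) and Rbp4 and Aldh1a1 were at least 2 times lower (11.7%). Sub-clusters set the value apart: 189 fibrosis cells led by Atp6v0d2 and Gpnmb had 4.49 (4.28 to 4.71) and 218 led by Cx3cr1 and F13a1 had 3.43 (3.19 to 3.69), but 116 led by Ace, a gene of patrolling monocytes, had 1.19 (0.888 to 1.56). In the normal library 117 cells led by Ace and Chil3 had 0.596 and 54 led by Mmp13 and Cx3cr1 had 1.08. The libraries therefore differed in which cells made up the class. Kupffer-like cells, the resident macrophages, had 1.18 and 1.70 (ratio 1.44, 1.22 to 1.71). Aldh1a1 per 10000 UMIs was 0.818 and 0.242 in the same monocyte/macrophage-like cells, a ratio of 0.295 (0.224 to 0.392), and its ratio in lymphoid cells was 0.659 (0.580 to 0.748). The summed level of 14 hepatocyte genes in monocyte/macrophage-like cells was 185.7 and 15.5. Per 100 UMIs of the 5 hepatocyte genes Aldh1a1 went the other way, from 0.635 to 3.16 UMIs in them and from 0.683 to 4.97 in lymphoid cells, so that its direction differed between the scales.

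**Figure D5:**
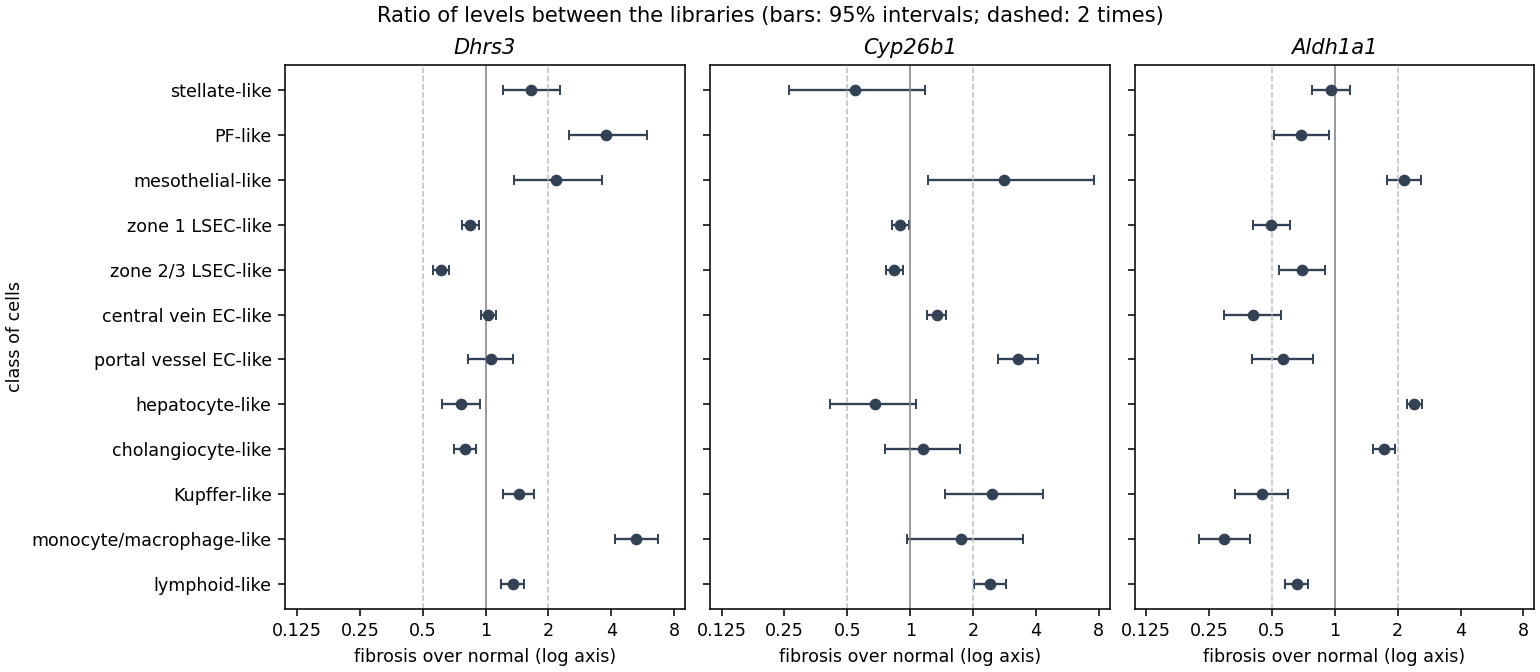
Ratio of the fibrosis to the normal level of Dhrs3, Cyp26b1 and Aldh1a1 in 12 classes, on a log axis with 95% intervals for counting error; dashed lines mark a ratio of 2 in either direction, and ratios with under 5 UMIs in a library are not drawn. Of the classes drawn, which pool B, T and NK cells as lymphoid, Dhrs3 was highest in monocyte/macrophage-like cells (5.25). Cyp26b1 was highest in portal vessel EC-like cells (3.28) and Aldh1a1 in hepatocyte-like droplets (2.40).

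Of a list of 51 other retinoid genes, 50 were found in the files. In stellate-like cells 15 were measured at 0.5 or more in either library. Lpl and Fabp5, a carrier of fatty acids and retinoic acid, were at least 2 times higher in fibrosis (7.53% of genes were so), with ratios of 2.59 (2.14 to 3.16) and 2.61 (1.49 to 4.92). Both were higher in fibrosis lymphoid cells too, Lpl with 0.192 and 3.21 and Fabp5 with 0.738 and 2.34, and the part of free RNA in the difference was not tested. Ttr, Adh1 and Aldh8a1, all genes of hepatocytes, were at least 2 times lower (6.97%), with ratios of 0.0812, 0.237 and 0.0404, so that Adh1 fell least. The summed level of 14 hepatocyte genes was lower in these cells too, from 149.9 to 11.8, and its part in these ratios was not tested. In LSEC-like cells 16 were measured: those at least 2 times higher (3.12%) included Lpl and Lrp1, both under their lymphoid level in the fibrosis library, and Ttr, Rdh7, Adh1 and Aox3, likewise genes of hepatocytes, were at least 2 times lower (4.21%). Between the cell types, genes such as Lpl, Lrp1, Bco1 and Rxra were at least 2 times higher in stellate-like than LSEC-like cells of the normal library and Fabp5 and Aox3 at least 2 times lower, out of 18. In the fibrosis library Lpl, Lrp1 and Bco1 were among the higher ones and Fabp5 was lower, out of 13. Fabp5 was thus the pathway gene on the endothelial side in both libraries, with 2.72 and 4.69 in LSEC-like against 0.292 and 0.762 in stellate-like cells.

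The genes whose levels most resembled each member over 42 class and library groups, by Pearson correlation of log2(level + 0.1) among 5837 genes, are given as a description. The groups of a library share its depth and carried-over RNA. For Lrat they were Gdf2 (0.993), a BMP ligand of HSCs, Bmp5 (0.990) and Dcn (0.985), a matrix proteoglycan. For Rbp4 they were Cdo1 (0.991), Hamp (0.990), the iron hormone of hepatocytes, and Ttc36 (0.989). Cyp26b1 was nearest to the endothelial genes Sox7 (0.973), Adgrl4 (0.970) and Pcdh12 (0.969). Dhrs3, which is spread over endothelium and macrophages, had weaker neighbours in Camk1 (0.841), Tcn2 (0.837) and Lrp5 (0.826), and Rarb in C1qtnf1 (0.917), Rcn1 (0.901) and Slc43a3 (0.898). Aldh1a1 was nearest to Me1 (0.973), Hspb8 (0.913) and Fxyd1 (0.884).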

How the data were processed

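Liver NPCs of 1 normal and 1 fibrosis mouse were measured by 10x Chromium 3′ version 3 single-cell RNA sequencing. Per the submitters' processing notes, the authors used Cell Ranger 3.0.1 and the genome build mm10, and the deposited tables hold raw UMI counts per gene and cell, neither normalized nor filtered. The study's methods exclude doublets by Scrublet, yet its fibrosis cell number equals the 6437 barcodes deposited. Cells with more than 200 genes and a mitochondrial share under 10% were kept (7471 normal and 6132 fibrosis cells).

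Counts were scaled to 10000 and ln(1 + x) transformed. With scanpy 1.11.5 (Python 3.11.15), 2000 variable genes, 10 principal components, 20 neighbours and Leiden clustering (leidenalg 0.10.2) at resolution 0.8 were used per library, with the 9 members and 51 other retinoid genes held out, and mesenchymal, endothelial and myeloid cells were clustered again. A cluster took the name with most markers among its 10 leading genes if at least 3 were raised; where none was among these, 3 or more among the 50 leading genes decided, as for 62 normal central vein EC-like cells. Mesenchymal sub-clusters, lymphatic EC-like cells apart, were set aside as mixed droplets if their LSEC or macrophage marker level reached 20% of that in endothelial or macrophage clusters. A fibrosis sub-cluster led by cell cycle genes was set aside with them. Its LSEC and macrophage marker levels were 9.37% and 11.2%, under that limit. The naming rule and the 20% limit were settled after the data had been seen. Scrublet (in scanpy) called 1 cell per library and was judged not to have worked, so doublets were not removed.

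Summed UMIs per class were divided by the class total. Intervals are exact Poisson for levels, exact conditional binomial for ratios (scipy 1.17.1) and Clopper-Pearson for shares of cells, at 95%; UMIs are molecules and intervals cover counting error only. A count of 0 allows up to 3 counts. With 1 library per condition no test was run; a gene counts as different past 2 times, among genes at 0.5 or more UMIs per 10000 in either group. The calling step was tested on simulated data. Levels are not compared between genes. Coordinates are from GENCODE vM21 and promoters from RefSeq, both GRCm38, the assembly of mm10. All members are named; of the other genes, those past 2 times between stellate-like and LSEC-like cells or between the libraries in them, the 3 nearest genes of each member at 1 or more in a class, and 10 activation genes. Members and lists were chosen with earlier results of these data known. Some items are not reported here.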

Additional observations from a re-analysis of the deposited data

Results flagged for a closer look

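For 3 genes the whole interval of the ratio of fibrosis to normal was above 2 in a class and under 1 in another. With 1 library per condition these differences between classes were not tested. Dhrs3 had a ratio of 5.25 in monocyte/macrophage-like cells and of 0.609 in zone 2/3 LSEC-like cells. Cyp26b1 had 3.28 in portal vessel EC-like cells, where the lymphoid level was higher too, and 0.839 in zone 2/3 LSEC-like cells. Aldh1a1 had 2.40 in hepatocyte-like droplets, where the median gene was 0.47 higher on the log2 scale, and 0.295 in monocyte/macrophage-like cells, where the summed level of 14 hepatocyte genes went from 185.7 to 15.5 and Aldh1a1 per 100 UMIs of 5 hepatocyte genes from 0.635 to 3.16.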

How the results depend on the processing

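The 2 members at least 2 times higher in stellate-like than in LSEC-like cells, Lrat and Aldh1a1, stayed at a count of 2 in both libraries under all 9 alternatives run on it. The Lrat ratio in stellate-like cells, 1.15, was 1.05 with a mitochondrial limit of 5%, 1.97 per cell, 0.963 without the top 5% of Scrublet scores and 0.906 with mixed droplets kept. With resolutions of 0.4 and 1.5, with retinoid genes allowed, without the 3 richest cells and in the shallower sub-cluster alone (chosen after seeing the data) it was 1.07 to 1.24. The count of members different between the libraries rose from 1 to 2 in stellate-like cells per cell (Dhrs3, 2.83), and from 1 to 2 in LSEC-like cells with a mitochondrial limit of 5% (Rarb, 0.469), a resolution of 1.5 (Aldh1a1, 0.467), without the top 5% of Scrublet scores (Aldh1a1, 0.460) and with retinoid genes allowed (Aldh1a1, 0.419). Of 36 pairs of a member and a class, stellate-like or LSEC-like, in a library, 9 had a share of cells with a UMI whose interval lay above that of lymphoid cells at 1000 UMIs, 11 at 3000 and 19 without thinning. Of 18 nearest genes 15 were shared with a pseudocount of 0.5 and 6 with Spearman correlation. Rbp4 in hepatocyte-like droplets, 1.21, turned to 0.924 (mitochondrial limit of 5%) and 0.989 (without the 3 richest cells). Normal Cyp26b1 of central vein over LSEC-like cells, 1.40, turned to 0.938 (resolution 1.5) and 0.922 (Scrublet). The causes were not tested. Of 272 values of 39 other ratios, with the Lrat ratio above and values per cell not counted, 196 lay within the interval of the reported one, 72 outside it in the same direction and 4 turned. In B cells of the fibrosis library a mitochondrial limit of 5% took Lrat from 0.550 to 0.0760, Dhrs3 from 1.2 to 0.418 and Aldh1a1 from 0.994 to 0.494, and keeping the mixed droplets took Lrat of fibrosis stellate-like cells from 16.9 to 7.95. No paired analysis was possible because each condition is 1 library. Depth limits Stra6 and Cyp26a1 throughout and Aldh1a2 outside mesothelial-like cells and an unnamed fibrosis sub-cluster.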

Other observations

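A sub-cluster of 29 fibrosis cells led by Cxcl5 and Fndc1, which took no cell type name, held 14 of the 18 Stra6 UMIs of its library, in 5 cells, and 87 Aldh1a2 UMIs, in 18 cells. Its levels were 0.165 (0.0904 to 0.278) for Stra6, 1.03 (0.823 to 1.27) for Aldh1a2 and 2.93 (2.58 to 3.32) for Aldh1a1, while Lrat was 0.390 and Rarb 0.154. The normal library had no such sub-cluster, so no comparison was made.

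In monocyte/macrophage-like cells, where fibrosis Dhrs3 was higher, other genes of lipid and retinoid handling that were picked after their values were seen were higher too. Lipa, the lysosomal acid lipase, went from 1.95 in normal to 9.74 in fibrosis cells (5.0 times, 4.33 to 5.81). Lpl went from 1.0 to 28.6 (28.5 times, 23.3 to 35.1) and Fabp5 from 0.921 to 25.8 (28.1 times, 22.8 to 34.9). Lrp1 went from 3.94 to 8.65 (2.19 times, 1.98 to 2.44). These are 4 of the 15 listed retinoid genes measured there, and 5 others were at least 2 times lower, where 8.92% of all 4228 genes were at least 2 times higher and 11.7% lower. The libraries differed in which sub-clusters made up this class.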
